A study of Mus musculus with 48 samples.

Results

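Rpl22+/- clones, which carry heterozygous loss of the ribosomal protein gene Rpl22, were compared with wild-type (WT) clones of Ba/F3, an interleukin 3-dependent mouse pro-B cell line. Members were chosen by genotype label alone: every RNA-seq and ribosome footprint library of the Rpl22+/- clones 13, 16 and 60, and of the WT clones 1, 2 and 3, which makes 12 of the 48 libraries. The panel is described as CRISPR-Cas9 clones made from this line. Cultures contained 1 ng/ml interleukin 3 and 10% serum, and received cycloheximide (0.1 mg/ml, 1 min) just ahead of lysis. The lysate of a clone was split and gave 1 poly(A) RNA library and 1 library of ribosome-protected fragments of 28 to 30 nt. The clones labelled Rpl22-/- (3) and the Rpl5+/- and Rpl11+/- clones (3 each) are used for comparison, and the 3 remaining genotypes, with mutated Rpl10 or Rps15, enter only the estimate of the spread. Each group is 3 clones of 1 parental line, so tests measure the spread between clones, and the labels do not say whether the WT clones had passed through editing.

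Rpl22 encodes a protein on the surface of the large ribosomal subunit that many cell types can do without, and its gene is recurrently deleted or mutated in leukaemias and other cancers. It binds RNA, and its paralog Rpl22l1, which can take its place in the ribosome, is held down by Rpl22 in several tissues. Footprint counts report how many ribosomes sit on an mRNA, so a footprint change beyond the RNA change is read as a change in translational efficiency.

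RNA libraries held 25317713 to 27470910 estimated counts in WT and 26903078 to 33414392 in Rpl22+/-. Footprint libraries held 46806204 to 71443928 counts in WT, but 38270983, 43381758 and 15598994 in Rpl22+/- clones 13, 16 and 60. In the footprints, 17.97% of tested genes were at 0 in clone 60 and 10.09% in clone 13, against 3.392% to 5.71% in WT. B-lineage markers were nearly absent: 9 of 15, among them Ebf1, Rag1 and Rag2, were at 0 in all 6 RNA libraries, only Cd79b reached 1 CPM (counts scaled to a common library size), and the 15 summed to 6.52 to 10.8 CPM in WT and 5.43 to 7.92 in Rpl22+/-. Of the interleukin 3 receptor, all 3 chains were present. Granulocyte and erythroid marker sums overlapped between the groups at both levels, whereas mast cell markers, mostly Cpa3 and Gata2, overlapped in RNA but summed to 124 to 215.9 CPM of footprints in WT and 253.7 to 362.8 in Rpl22+/-, with no member called. The part of these sums in the results was not tested. In bulk libraries, fewer cells expressing a gene and less RNA per cell cannot be told apart.

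Rpl22 itself (GRCm38 chromosome 4, 152324436 to 152334082) checks the genotype. Below, values are in CPM after scaling by the trimmed mean of M values, WT clones are given in the order 1, 2, 3 and Rpl22+/- clones in the order 13, 16, 60. Differences are log2 values ± standard error from edgeR's quasi-likelihood test, with p adjusted by Benjamini-Hochberg over all genes tested and called below 0.05. Rpl22 RNA was at 944, 933 and 967 CPM in WT and at 664, 712 and 672 in Rpl22+/-, a fall of -0.47 ± 0.10 (adjusted p = 0.0104). The groups did not overlap, but the call was lost without WT clone 3 (adjusted p = 0.0501) or without clone 13 (0.055). Rpl22 footprints were at 2517, 2350 and 2786 CPM against 1596, 1466 and 1429, which also did not overlap, but the difference of -0.77 ± 0.41 did not pass the test (adjusted p = 0.421). The clones labelled Rpl22-/-, which share the estimate of spread, were at 274.1, 1544 and 316.6 CPM of Rpl22 footprints in clones 649, 30 and 776. Clone 30 thus lay at the Rpl22+/- level, against its label. With clone 30 left out, an alternative chosen after seeing the data, the footprint difference of Rpl22+/- from WT was -0.77 ± 0.14 (adjusted p = 0.0307) and the RNA difference -0.47 ± 0.10 (adjusted p = 0.00641). From low to high, mean Rpl22 RNA was 632 CPM in the clones labelled Rpl22-/-, 683 in Rpl22+/-, 948 in WT, 1172 in Rpl5+/- and 1198 in Rpl11+/-. The first pair did not differ beyond the spread (Rpl22-/- minus Rpl22+/- -0.11, adjusted p = 1), and Rpl22+/- was lower than the mean of Rpl5+/- and Rpl11+/- by -0.80 (adjusted p = 0.000103). The paralog Rpl22l1 was at 591, 636 and 634 CPM of RNA against 635, 562 and 577, with overlapping groups and a difference of -0.07 ± 0.18 (adjusted p = 0.912), and its footprints differed by 0.04 ± 0.14 (adjusted p = 0.923).

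Of 12814 genes tested in RNA, 500 (3.9%) were called between Rpl22+/- and WT: 139 (1.08%) were higher and 361 (2.82%) lower. Of 16217 tested in footprints, 41 (0.253%) were called, 23 (0.142%) higher and 18 (0.111%) lower. The groups did not overlap for 499 of the 500 RNA calls and for all 41 footprint calls, against 30% and 19.6% of all genes tested. Calls and overlap were taken from the same values, so this is no separate support for the calls. Most changes were small: 55 of the 500 RNA calls reached 2-fold, 30 of them higher, against 25 of the 41 footprint calls. Without 1 clone, the RNA count ranged from 211 (without clone 16) to 336 (without clone 60), and 167 of the 500 genes (43 higher, 124 lower) were called in all 6 such fits. With clone 30 left out of the fit, 430 RNA and 31 footprint genes were called. When only the 6 compared libraries entered the fit, the RNA count was 1248. Footprint calls depended far more on single libraries: there were 5 without WT clone 1, 6 without WT clone 2, 27 without WT clone 3, 7 without either clone 13 or clone 60, and 252 without clone 16. The genes called in all 6 footprint fits were Csrnp1, Dusp2, Jun and Taf7, all higher. The other footprint calls named here were each lost in 2 to 6 of the 6 fits, with the same sign throughout.

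Most RNA calls had a footprint difference of the same sign. Among the 493 RNA calls that were also tested in footprints, 121 of 135 higher genes had a footprint difference above 0 and 314 of 358 lower genes had one below 0. RNA and footprints of a clone came from the same lysate, and their deviations correlated at 0.235 to 0.435. The levels are therefore not independent, and the share of equal signs over all genes was not counted. The median differences were 0.46 in RNA and 0.51 in footprints for the higher genes, and -0.50 and -0.34 for the lower ones. Called at both levels were 15 genes, 10 higher and 5 lower, all with the same sign. They include the immediate early genes Fosl1, Csrnp1 and Dusp2, the stress phosphatase subunit Ppp1r15a, the NF-kappaB cofactor Nfkbiz and the general transcription factor gene Taf7 among the higher, and the ubiquitin ligase G2e3, the polarity scaffold Mpp5 and the zinc-finger gene Zfp763 among the lower.

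**Figure D1:**
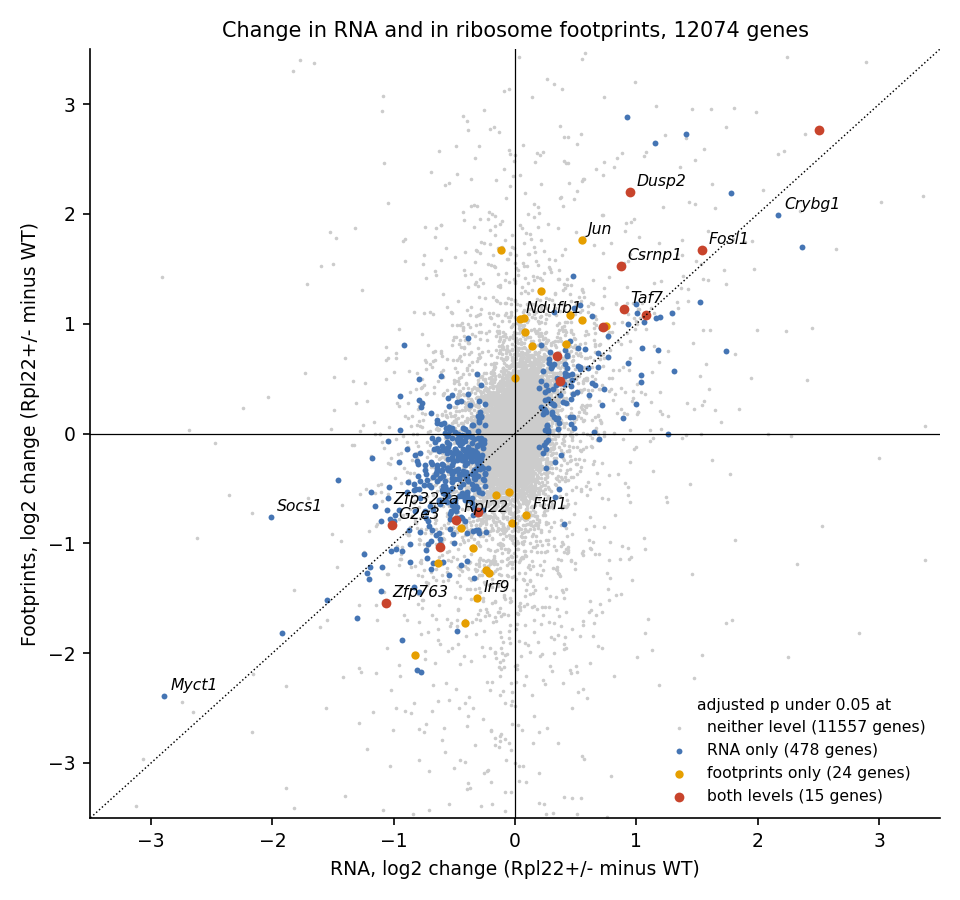
Log2 difference of Rpl22+/- minus WT in RNA (x axis) and footprints (y axis) for the 12074 genes tested at both levels, 1 point per gene, coloured by the level at which a gene was called; 210 genes, 5 of them called, lie outside the axes at ±3.5. The 15 genes called at both levels have the same sign in both, and 478 genes were called in RNA only.

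Of the gene lists examined, the immediate early genes had the largest share of higher calls. These are transcription factors and feedback regulators that growth factor and MAP kinase signals switch on within minutes, many of them through the serum response factor, which binds CArG boxes. Of 33 tested in RNA, 10 (30.3%, against 1.08% of all genes) were higher and 3 (9.09%) lower, with a median difference of 0.44 against 0.01 over all genes. In footprints 4 of 32 (12.5%, against 0.142%) were higher and 0 lower, with a median of 0.59 against -0.03.

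Among the transcription factors, Fosl1, an AP-1 subunit, was at 6.76, 7.0 and 5.28 CPM of RNA in WT and at 17, 19.5 and 18.9 in Rpl22+/- (1.54 ± 0.20, adjusted p = 0.000105). Its footprints were at 4.54, 3.59 and 4.47 CPM against 8.56, 15.2 and 16.4 (1.67 ± 0.29, adjusted p = 0.0204). No clone of one group reached the other at either level. Fosb, another AP-1 subunit, was at 2.44, 1.56 and 1.85 CPM of RNA against 5.96, 5.85 and 7.71 (1.74 ± 0.29, adjusted p = 0.00146), but its footprints stayed near or under 1 CPM and overlapped. Srf, the gene of the serum response factor, was at 56.7, 57.8 and 52.5 CPM of RNA in WT and about 2-fold higher, at 106, 117 and 111, in Rpl22+/- (0.99 ± 0.10, adjusted p = 5.52e-06). Its footprints, at 2.6, 2.24 and 2.04 CPM against 3.59, 4.16 and 7.96, did not pass the test (adjusted p = 0.226). The zinc-finger factor Klf6 rose in RNA by 1.06 ± 0.20 (adjusted p = 0.00438), from 83.3 to 123 CPM in WT to 202 to 247 in Rpl22+/-, and the AP-1 family genes Jund, Maff and Mafk rose by 0.60, 0.93 and 1.04 (adjusted p 0.00502, 0.0336 and 0.00434). Phlda1, a pleckstrin-homology gene, rose in RNA by 1.00 ± 0.24 (adjusted p = 0.0261). Of the 6 fits without 1 clone, Phlda1 was called in 1 and Maff in 0, while Mafk was called in all 6.

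Csrnp1, a nuclear protein gene induced by AXIN1, had the lowest footprint p of all. Its footprints were at 38.5, 41.8 and 46.6 CPM in WT and at 118, 114 and 133 in Rpl22+/- (1.52 ± 0.15, adjusted p = 5.38e-05), and its RNA at 101, 94.2 and 91.9 against 173, 179 and 174 (0.88 ± 0.19, adjusted p = 0.0127); the RNA call was lost without clone 16 or WT clone 2 or 3. Dusp2, a nuclear phosphatase that inactivates MAP kinases, was at 5.28, 3.88 and 4.07 CPM of footprints against 21.2, 24.1 and 15.5 (2.20 ± 0.24, adjusted p = 6.88e-05). Its RNA rose less, from 8.21 to 10.8 CPM to 14.9 to 22.3 (0.95 ± 0.18, adjusted p = 0.00438). Jun, the archetypal AP-1 subunit, was at 14.1, 13.9 and 21.0 CPM of footprints against 71.0, 49.5 and 45.3 (1.76 ± 0.22, adjusted p = 0.000643). For Jun the RNA groups did not overlap either, at 35.4, 35.6 and 46.7 CPM against 56.7, 64.3 and 51.0, but the difference of 0.55 ± 0.18 did not pass (adjusted p = 0.105). Fos RNA overlapped (-0.07 ± 0.19, adjusted p = 0.914), and Fos footprints, at 34.3, 34.1 and 42.5 CPM against 52.4, 63.8 and 73.2, did not pass (adjusted p = 0.177).

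The 3 lower members are brakes on the MAP kinase pathway, but other brakes rose. Dusp2 was higher at both levels, as given above. Outside the list, Spry4 and Dusp14 were called higher in RNA (0.89 and 0.53, adjusted p = 0.0385 and 0.0285), in 0 and 1 of the 6 fits without 1 clone. Dusp6, a cytoplasmic ERK phosphatase, was at 103, 106 and 114 CPM of RNA in WT and at 65.8, 69.9 and 72.7 in Rpl22+/- (-0.64 ± 0.16, adjusted p = 0.0285), while its footprints overlapped (-0.05 ± 0.17, adjusted p = 0.935). Spred1 and Spred2, which inhibit RAS signalling, fell in RNA by -0.34 ± 0.07 and -0.30 ± 0.08 (adjusted p = 0.00706 and 0.0336). The calls of Dusp6 and Spred2 were lost in each of the 6 fits without 1 clone.

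**Figure D2:**
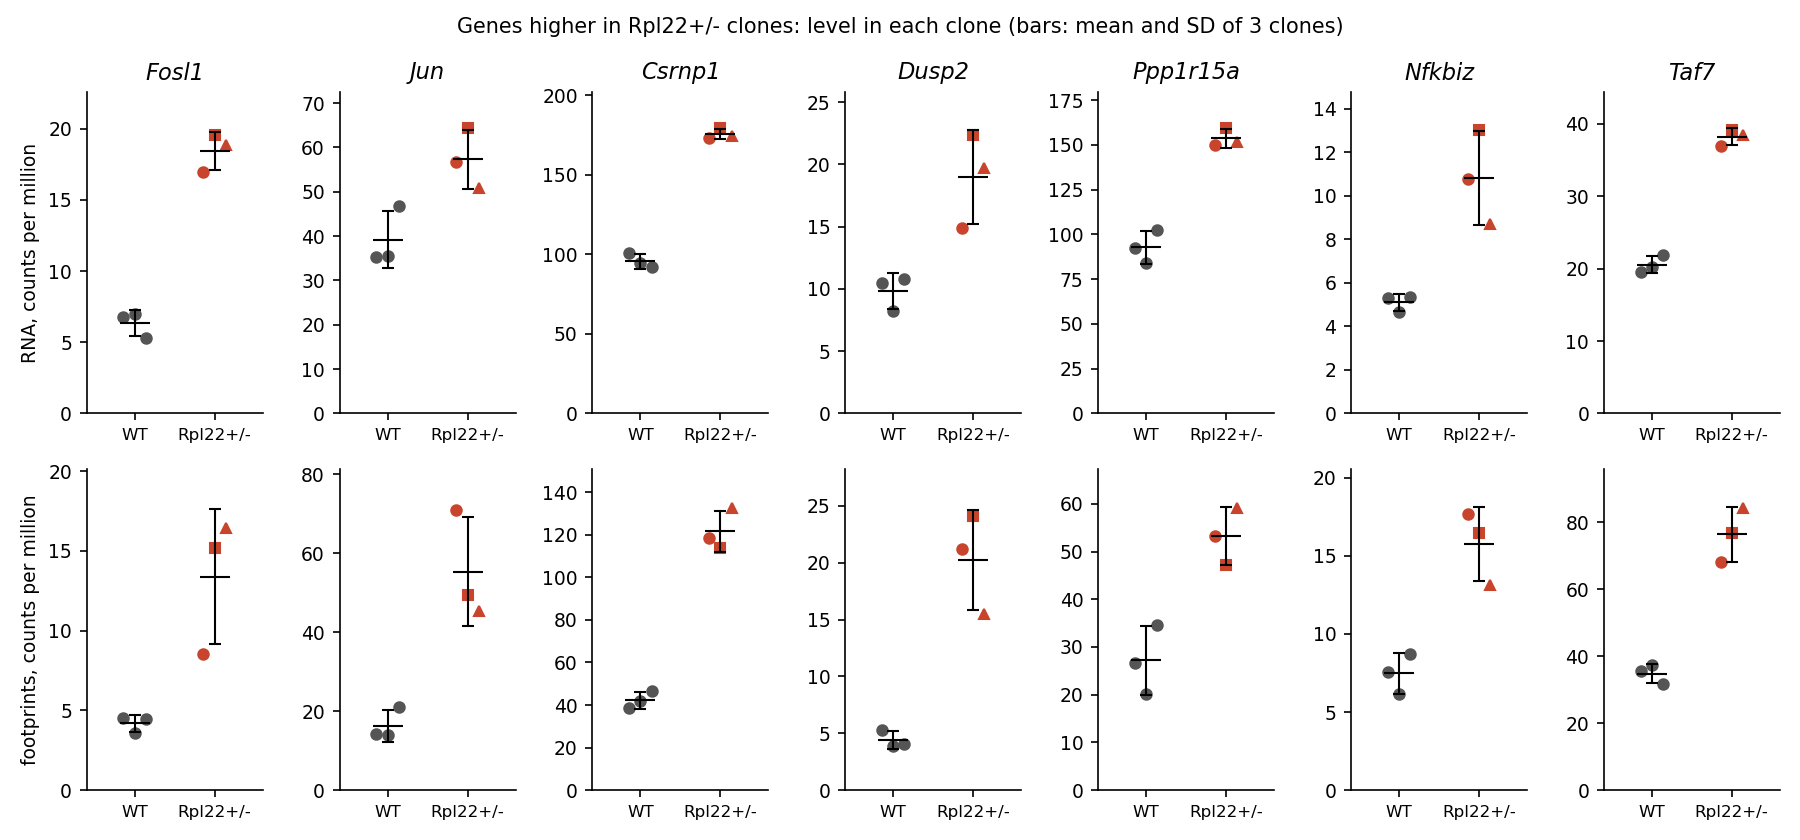
CPM per clone of Fosl1, Jun, Csrnp1, Dusp2, Ppp1r15a, Nfkbiz and Taf7 in RNA (top row) and footprints (bottom row), WT against Rpl22+/-, with the mean and SD of 3 clones as bars (circle, square and triangle: Rpl22+/- clones 13, 16 and 60). In each of these 14 panels the 3 Rpl22+/- clones lie above the 3 WT clones. Separate groups in footprints were a condition for naming these genes, so the bottom row is no separate support. Groups did not overlap for 30% of all genes tested in RNA and 19.6% in footprints. Jun RNA is the one panel whose difference was not called.

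The 250 bases before the RefSeq start (GRCm38.p6) were available for 9 of the 11 immediate early genes higher at either level. Of these, 3 are shown. That of Srf holds matches to a response element this family is known for. Those of Dusp2 and Jun hold no exact match. Searched on both strands were the CArG box by name, the cyclic AMP response element TGACGTCA and the AP-1 site TGANTCA. They are held by 1.47%, 1.55% and 6.75% of all 32851 such windows. Among the 11842 windows of genes tested in RNA the shares are 1.06%, 2.66% and 4.43%. Capitals mark an exact match, so a near match such as TGACATCA in the Jun window is left unmarked. The Srf window (chr17:46556163-46556412, minus strand) holds 2 CArG boxes, 72 and 52 bases before the start. The windows of Dusp2 (chr2:127335909-127336158, plus strand) and Jun (chr4:95052223-95052472, minus strand) hold no exact match to any of the motifs.
Srf: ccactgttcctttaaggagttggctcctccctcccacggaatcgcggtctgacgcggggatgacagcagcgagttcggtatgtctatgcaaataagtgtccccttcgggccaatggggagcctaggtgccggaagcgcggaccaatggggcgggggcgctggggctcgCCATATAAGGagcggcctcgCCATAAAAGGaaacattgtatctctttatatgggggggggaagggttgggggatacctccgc
Dusp2: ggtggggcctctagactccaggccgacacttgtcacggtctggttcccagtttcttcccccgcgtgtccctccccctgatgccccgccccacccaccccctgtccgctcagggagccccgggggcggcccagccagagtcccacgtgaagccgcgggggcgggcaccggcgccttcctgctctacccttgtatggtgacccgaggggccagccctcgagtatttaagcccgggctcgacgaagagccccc
Jun: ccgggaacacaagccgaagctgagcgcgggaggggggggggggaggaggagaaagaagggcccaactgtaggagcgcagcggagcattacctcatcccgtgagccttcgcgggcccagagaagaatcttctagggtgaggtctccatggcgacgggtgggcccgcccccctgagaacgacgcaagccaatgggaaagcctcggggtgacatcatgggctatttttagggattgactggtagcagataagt
Of the other genes, Csrnp1 has 2 AP-1 matches, 95 and 7 bases before 1 of its annotated starts, and Maff has 1 cyclic AMP response element, 21 bases before 1 of its starts. These letters describe the windows and show no binding.

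Genes of interleukin 3 and JAK-STAT signalling, which sustains Ba/F3 growth, were fewer: 3 of 30 (10%, against 2.82% of all genes) were lower in RNA and 0 higher (against 1.08%). Socs1, the feedback inhibitor of JAK kinases, had RNA at 46.9, 51.9 and 52.5 CPM in the WT clones and at 11.5, 14.6 and 11.2 in the Rpl22+/- clones (-2.02 ± 0.29, adjusted p = 0.000477). Its footprints were low in all clones, at 9.35, 7.78 and 11.3 CPM against 4.33, 5.31 and 7.20, and did not pass (-0.76 ± 0.43, adjusted p = 0.456). Myc, the growth regulator, fell in RNA from 381, 383 and 375 CPM to 211, 245 and 251 (-0.69 ± 0.18, adjusted p = 0.0371), while its footprints overlapped (-0.28 ± 0.18, adjusted p = 0.522). Id1, an inhibitor of basic helix-loop-helix factors, fell in RNA by -1.16 ± 0.31 (adjusted p = 0.049), from 121 to 129 CPM to 43.3 to 66.7. The calls of Myc and Id1 were lost in each of the 6 fits without 1 clone, and that of Socs1 in none. The JAK-STAT target Cish did not pass (RNA -0.46 ± 0.14, adjusted p = 0.0647). In footprints 1 of 30 (3.33%, against 0.253% of all genes) was called: Osm, the cytokine oncostatin M, was at 62.5, 53.6 and 63.0 CPM against 103, 115 and 161 (1.08 ± 0.23, adjusted p = 0.0468). The receptor chains Il3ra, Csf2rb and Csf2rb2 summed to 929.6 to 1091 CPM of RNA in WT and 1187 to 1507 in Rpl22+/-, with none called, and the part of this in the group was not tested.

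NF-kappaB genes changed both ways, with 3 of 20 (15%, against 1.08% of all genes) higher and 2 (10%, against 2.82%) lower in RNA. Nfkbiz, a nuclear IkappaB protein that acts as a cofactor, rose at both levels: RNA was at 5.32, 4.65 and 5.35 CPM against 10.7, 13.0 and 8.69 (1.08 ± 0.19, adjusted p = 0.00211), and footprints at 7.55, 6.14 and 8.72 against 17.7, 16.5 and 13.1 (1.08 ± 0.22, adjusted p = 0.0413). The subunit gene Rela rose in RNA by 0.32 ± 0.06 (adjusted p = 0.00216) and the adaptor Traf1 by 0.93 ± 0.25 (adjusted p = 0.0355). The inhibitors Tnfaip3 and Nfkbie fell by -0.69 ± 0.19 and -0.41 ± 0.11 (adjusted p = 0.0388 and 0.0433). Of the 6 fits without 1 clone, Traf1 was called in that without clone 60, Tnfaip3 in that without WT clone 2 and Nfkbie in 0.

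In RNA, 1.08% of all genes were called higher and 2.82% lower, against which the small counts of the stress and sterol lists are read. Of 26 p53 targets, 1 (3.85%) was higher and 0 lower: the kinase Plk3, at 5.08, 5.54 and 4.75 CPM against 11.2, 13.9 and 11.7 (1.26 ± 0.22, adjusted p = 0.00174), with footprints that overlapped (adjusted p = 0.998). The p53 targets Cdkn1a and Mdm2 did not pass (RNA 0.14 ± 0.16 and 0.20 ± 0.12, adjusted p = 0.757 and 0.469). Of 25 ATF4 and integrated stress response genes, 1 (4%) was higher and 1 (4%) lower. Counts of 1 in lists of this size say little beyond the gene itself. Ppp1r15a, the phosphatase subunit that reverses eIF2alpha phosphorylation, was at 92.4, 83.9 and 102 CPM of RNA against 150, 159 and 152 (0.73 ± 0.17, adjusted p = 0.0219), and at 26.7, 20.1 and 34.7 CPM of footprints against 53.3, 47.1 and 59.2 (0.97 ± 0.18, adjusted p = 0.0204). Ddit4, an inhibitor of mTORC1, fell in RNA from 67.0, 64.6 and 78.9 CPM to 28.0, 36.4 and 33.3 (-1.11 ± 0.18, adjusted p = 0.00153). Among 24 chaperone and unfolded protein response genes, 2 were higher and 1 lower. Hspa5, the main chaperone of the endoplasmic reticulum, rose by 0.46 ± 0.08 in RNA (adjusted p = 0.00266), the cytosolic Dnajb1 by 0.32 ± 0.07 (adjusted p = 0.00639), and the transcription factor gene Xbp1 fell by -0.57 ± 0.16 (adjusted p = 0.0491). Among 24 cholesterol genes, Insig1, which holds back sterol synthesis, rose by 0.61 ± 0.13 (adjusted p = 0.0101), and the sterol carrier Stard4 fell by -0.30 ± 0.08 (adjusted p = 0.0393). The calls of Xbp1 and Stard4 were lost in each of the 6 fits without 1 clone, that of Ppp1r15a RNA in 5, that of Insig1 without clone 16 or WT clone 1, and that of Dnajb1 without clone 60.

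Among genes with a mean of at least 5 CPM in 1 group and a symbol that is no Gm or Rik name, the largest RNA rise was that of Crybg1, a crystallin-domain gene, at 1.48, 1.07 and 2.03 CPM in WT and 4.83, 7.36 and 8.35 in Rpl22+/- (2.17 ± 0.43, adjusted p = 0.00523). Next to the immediate early genes stood Ctla2a (1.52 ± 0.40), the zinc-finger gene Zfp296 (1.29 ± 0.16), the protease receptor gene F2rl2 (1.19 ± 0.29), the inhibitory receptor gene Tigit (1.18 ± 0.24), the TWEAK receptor gene Tnfrsf12a (1.16 ± 0.24) and the miR-22 host gene Mir22hg (1.15 ± 0.29). F2rl2 varied most among the mutant clones, at 91.9, 110 and 209 CPM against 79.9, 50.3 and 49.0, and its call was lost without clone 60, where its difference was 0.76, and without WT clone 2 or 3. Of the fits without 1 clone, Ctla2a was called in the one without clone 13. Tigit lost its call without WT clone 3, and Mir22hg lost it in each of the 6 fits. The steepest fall was that of Myct1, a target of Myc, from 22.3, 25.2 and 28.8 CPM to 3.92, 1.87 and 4.55 (-2.89 ± 0.58, adjusted p = 0.00832). It was not called without clone 16 (adjusted p = 0.0637). Slfn2, a regulator of lymphocyte quiescence, fell by -1.55 ± 0.39 (adjusted p = 0.0311), the calcium homeostasis modulator gene Calhm2 by -1.05 ± 0.18 (adjusted p = 0.00134), and G2e3 from 58.8, 57.2 and 63.6 CPM to 32.0, 27.5 and 29.5 (-1.02 ± 0.12, adjusted p = 2.03e-05). Of the fits without 1 clone, Slfn2 was called in the one without WT clone 1. G2e3 footprints followed, at 84.4, 81.4 and 71.2 CPM against 48.8, 47.0 and 37.1 (-0.83 ± 0.16, adjusted p = 0.026).

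**Figure D3:**
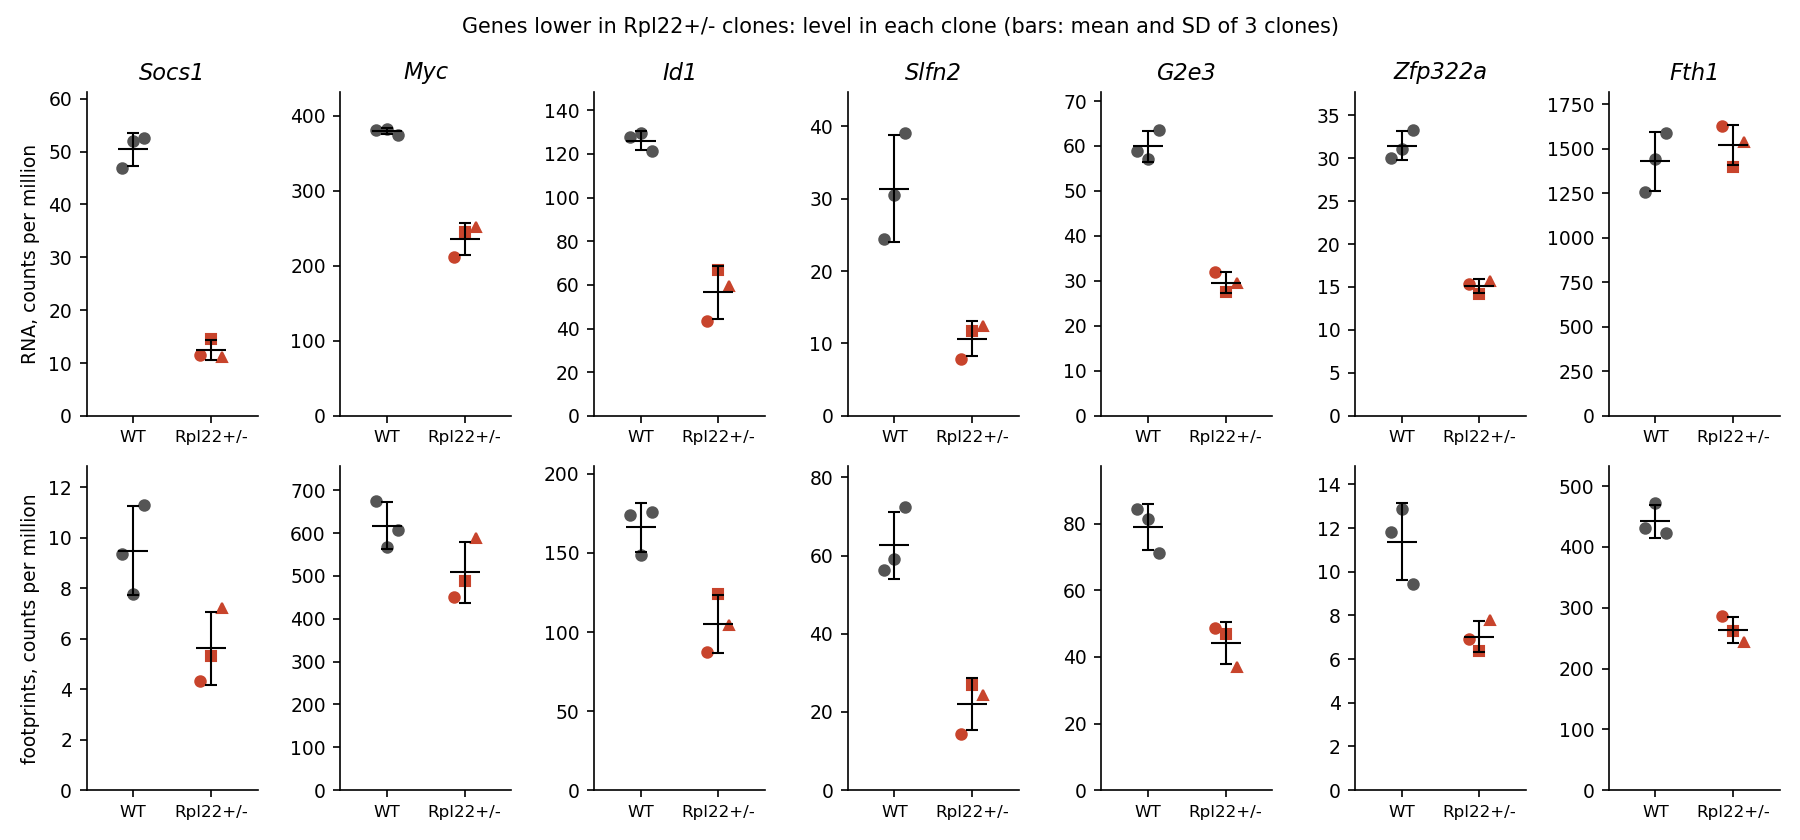
CPM per clone of Socs1, Myc, Id1, Slfn2, G2e3, Zfp322a and Fth1 in RNA (top row) and footprints (bottom row), WT against Rpl22+/-, with the mean and SD of 3 clones as bars (circle, square and triangle: Rpl22+/- clones 13, 16 and 60). Fth1 separates the groups in footprints only, and Myc separates them in RNA only.

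Zinc-finger genes named Zfp, most of which encode DNA-binding proteins and many of which repress transposable elements through a KRAB domain, made up 43 of the 361 lower RNA calls. Of 320 tested, these 43 are 13.4%, against 2.82% of all genes, and 4 (1.25%) were higher. Their median difference was -0.17 in RNA and -0.33 in footprints, where 6 of 327 (1.83%, against 0.111%) were lower and 0 higher. They were expressed at a median of 10.5 CPM of RNA in WT, against 24.9 over all genes, and what that contributes was not tested. The list was added after values had been seen.

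Zfp322a (GRCm38 chromosome 13, 23353103 to 23369208) had the lowest RNA p of all genes: it was at 30.1, 31.0 and 33.3 CPM in WT and at 15.4, 14.2 and 15.7 in Rpl22+/- (-1.06 ± 0.08, adjusted p = 4.15e-08). Zfp60 was at 16.3, 18 and 14.9 CPM against 7.08, 6.68 and 7.88 (-1.18 ± 0.13, adjusted p = 1.32e-05). Zkscan8, a zinc-finger gene outside the list, was at 18.5, 18.1 and 17.8 CPM against 8.57, 8.46 and 9.50 (-1.03 ± 0.11, adjusted p = 1.26e-05). The RNA of Zfp322a and Zkscan8 lay near 50% of WT in every mutant clone, and that of Zfp60 lay lower. Zbtb26, also outside the list, fell by -1.46 ± 0.24 (adjusted p = 0.00111). The members Zfp87 and Zfp780b fell by -1.05 ± 0.19 and -0.71 ± 0.11 (adjusted p = 0.00287 and 0.000436). In footprints the lower members were Zfp866 (-2.01 ± 0.37), Zfp763 (-1.54 ± 0.29), Zfp599 (-1.27 ± 0.26), Zfp229 (-1.18 ± 0.22), Zfp157 (-1.05 ± 0.16) and Zfp644 (-0.79 ± 0.15), with adjusted p from 0.00604 to 0.0413. Zfp157 footprints were at 29.1, 20.2 and 25.4 CPM against 11.5, 11.9 and 12.8, with RNA that did not pass (-0.34 ± 0.12, adjusted p = 0.124). Zfp763 and Zfp644 were called lower at both levels. Among the exceptions, Zfp296, Zfp703 and Zfp628 rose in RNA, Zfp296 from 4.25, 3.59 and 4.48 CPM to 8.68, 10.4 and 11.1 (adjusted p = 4.64e-05).

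Apart from Rpl22, edgeR called no gene of the translation machinery in the lists examined, at RNA, footprint or efficiency level. With 0.253% of all genes called in footprints, and 1 gene in efficiency, a count of 0 there lies near the background and is no result about these lists. In RNA the background was 3.9%. In RNA, 0 of the 46 other large-subunit ribosomal protein genes, 32 small-subunit genes, 67 ribosome biogenesis factors, 55 translation factors and 78 mitochondrial ribosomal protein genes were called, with 1, 0, 2, 3 and 1 at an unadjusted p under 0.05 (against 1982 of all 12814 genes), and DESeq2 and limma voom also called 0. In footprints 0 were called as well, with 14, 6, 9, 7 and 15 at an unadjusted p under 0.05 (against 2223 of all 16217 genes), and DESeq2 called 1 large-subunit, 1 translation factor and 1 mitochondrial gene. In efficiency, DESeq2 and limma voom each called 1 large-subunit gene. Outside the lists, the ribosome biogenesis genes Esf1 and Tex10 were called lower in RNA by edgeR (-0.43 and -0.32, adjusted p = 0.0276 and 0.0355), in 2 and 0 of the 6 fits without 1 clone. RNA of the 46 large-subunit genes spanned -0.02 to 0.11 with a median of 0.05, and their footprints -0.41 to 1.63 with a median of 0.11. The 10 genes next to Rpl22 in gene order and the 38 listed replication and cell cycle genes held 0 RNA calls by edgeR, DESeq2 and limma voom, with 1 and 5 at an unadjusted p under 0.05. That 0 holds for the listed genes only. Outside the list, edgeR called the cell cycle genes Wee1, Skp2 and Plk4 lower in RNA (-0.52, -0.59 and -0.39, adjusted p = 0.00566, 0.00472 and 0.00436). Foxm1 was called higher (0.30, adjusted p = 0.00974). The ribosomal protein retrogene Rpl37rt was lower in footprints (-1.73 ± 0.34, adjusted p = 0.0282), at 30.3, 74.1 and 20.8 CPM against 12.5, 15.1 and 10.2, and since it nearly copies Rpl37 its reads may be shared between the 2 genes.

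**Figure D4:**
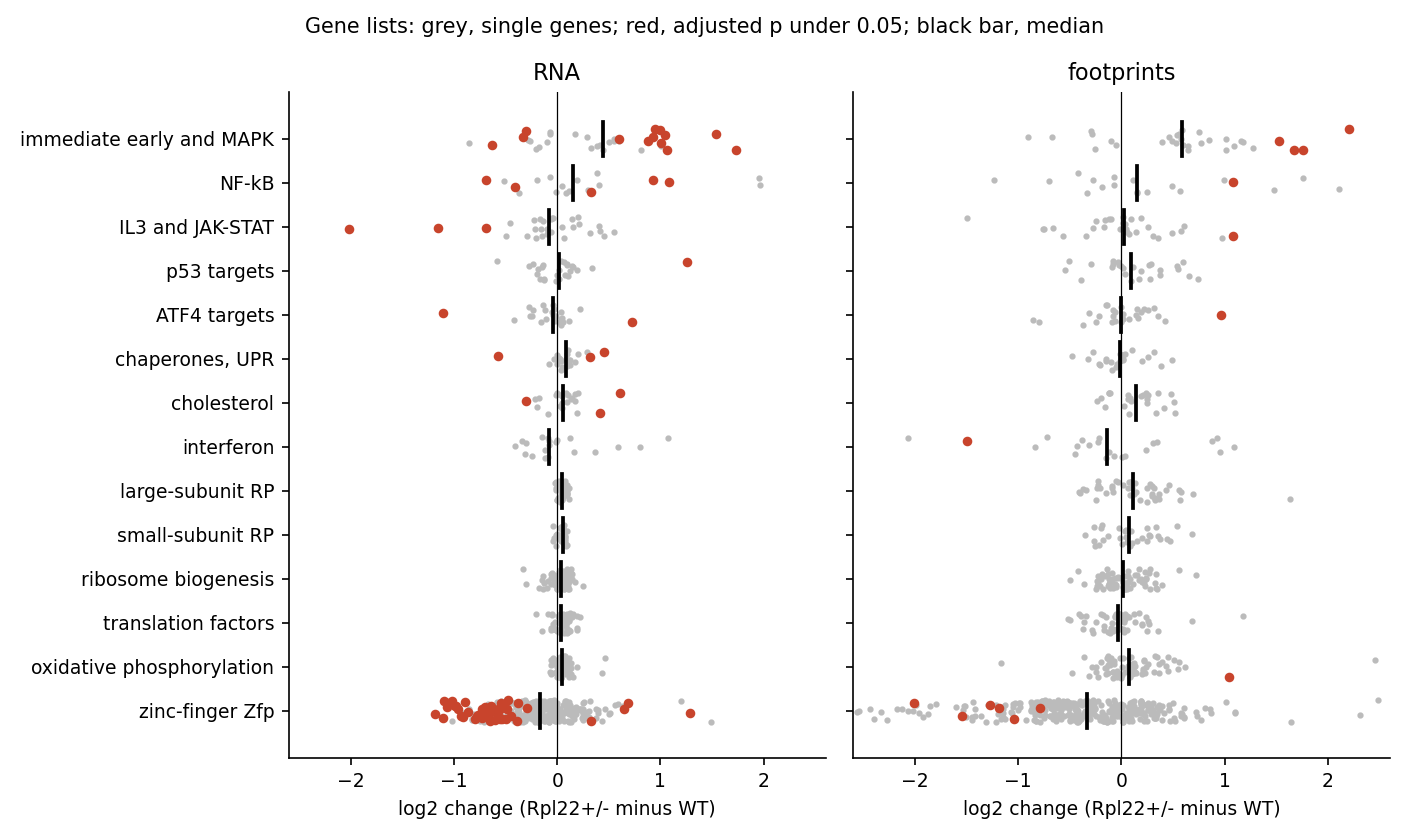
Log2 difference of Rpl22+/- minus WT for the tested members of 14 gene lists in RNA and footprints, 1 point per gene, called genes in red and the list median as a black bar. Points beyond ±2.6 are left out (for the Zfp genes 1 in RNA and 8 in footprints); the immediate early genes have the highest median at both levels, and the ribosomal protein genes lie close to 0 in RNA.

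Taf7, a subunit of the general transcription factor TFIID encoded by a gene without introns, rose at both levels. Its RNA was at 19.6, 20.2 and 21.9 CPM in WT and at 36.9, 39.2 and 38.5 in Rpl22+/- (0.89 ± 0.09, adjusted p = 8.30e-06), and its footprints at 35.6, 37.2 and 31.6 CPM against 68.0, 76.9 and 84.3 (1.13 ± 0.17, adjusted p = 0.00556). Other footprint rises came without a called RNA rise. Fam83d and H1f2 RNA differed by 0.55 and 0.75 without passing (adjusted p = 0.0784 and 0.133). Ndufb1 and Pgp RNA differed by 0.04 and 0.08 (adjusted p = 0.931 and 0.741). Translational efficiency differed by 0.47 and 0.21 for the first pair and by 0.99 and 0.84 for the second, none passing. Ndufb1, a subunit of respiratory complex I and the 1 called gene of 75 oxidative phosphorylation genes (against 0.253% of all genes in footprints), was at 117, 96.2 and 93.8 CPM of footprints against 219, 166 and 246 (1.04 ± 0.18, adjusted p = 0.0204), with RNA of 121 to 139 CPM against 129 to 143. Fam83d, a mitotic spindle gene, was at 16.9, 15.6 and 19.3 CPM of footprints against 39.3, 24.2 and 42.7 (1.03 ± 0.18, adjusted p = 0.0204). The linker histone gene H1f2 was at 380, 403 and 501 CPM against 900, 782 and 847 (0.98 ± 0.19, adjusted p = 0.025), and the phosphoglycolate phosphatase gene Pgp at 23.3, 19.2 and 29.3 against 47.5, 35.6 and 53.6 (0.93 ± 0.19, adjusted p = 0.0359). The RNA-binding protein gene Atxn2l rose modestly at both levels (0.37 ± 0.07 in RNA and 0.48 ± 0.08 in footprints, adjusted p = 0.00426 and 0.0175).

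Among the footprint falls, Fth1 (GRCm38 chromosome 19, 9980600 to 9985111) encodes the ferritin heavy chain, which stores iron and whose translation is held back when iron is low. Its footprints were at 431, 473 and 423 CPM in WT and at 286, 262 and 244 in Rpl22+/- (-0.74 ± 0.13, adjusted p = 0.0204), while its RNA overlapped, at 1254, 1443 and 1588 CPM against 1625, 1400 and 1538 (0.09 ± 0.11, adjusted p = 0.773). Fbxl5, the iron-sensing subunit of a ubiquitin ligase, was at 10.6, 10.7 and 9.25 CPM of footprints against 4.15, 5.42 and 3.22 (-1.24 ± 0.23, adjusted p = 0.0204), with RNA that did not pass (-0.24 ± 0.10, adjusted p = 0.26). Ireb2, the iron regulatory protein that Fbxl5 targets for degradation, fell in RNA from 91.5, 93.2 and 91.0 CPM to 71.3, 73.0 and 76.1 (-0.32 ± 0.06, adjusted p = 0.00266). The 8 iron genes, a list added after values had been seen, thus held 1 call in RNA (against 3.9% of all genes) and 2 in footprints (against 0.253%). The light chain gene Ftl1 and the transferrin receptor gene Tfrc were not called (footprints 0.13 ± 0.22 and 0.12 ± 0.21). Irf9, which carries interferon signals to the nucleus, was at 7.07, 6.09 and 9.55 CPM of footprints against 2.46, 3.82 and 1.71 (-1.50 ± 0.28, adjusted p = 0.025), the 1 call among 22 interferon-stimulated genes (against 0.253% of all genes). The histone methyltransferase gene Ash1l and the splicing kinase gene Clk1 fell by -0.82 ± 0.14 and -0.86 ± 0.18 (adjusted p = 0.0204 and 0.0468).

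Translational efficiency, tested as the footprint change beyond the RNA change in 1 model over both kinds of library, gave 1 call among 12074 genes (0.00828%). Phf20, a reader of histone and p53 methylation, had a log2 ratio of footprints to RNA of 0.31, -0.01 and 0.19 in WT and of 1.13, 0.86 and 1.02 in Rpl22+/-, a difference of 0.84 ± 0.14 (adjusted p = 0.00609). Its RNA fell (-0.32 ± 0.08, adjusted p = 0.0191) while its footprints were higher without passing (0.54 ± 0.12, adjusted p = 0.063), and its efficiency call was lost without clone 13 or without WT clone 2 or 3. Without clone 16 there were 174 efficiency calls, so that the count of 1 rests on that library too. Since RNA and footprints of a clone came from 1 lysate, the fit was repeated with the clone as a block, in which 14 genes were called, 11 higher and 3 lower. They included Phf20 (0.84), Jun (1.19), Dusp2 (1.24) and Fos (0.82) among the higher and Fth1 (-0.85) among the lower. These names, other than Phf20, were chosen after their values were seen, and with only the 12 compared libraries the block fit called 0 genes in edgeR, with 1250 at an unadjusted p under 0.05.

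The per-clone ratios show the same genes. Jun had log2 ratios of -1.29, -1.32 and -1.13 in WT and of 0.32, -0.37 and -0.17 in Rpl22+/-, and Dusp2 of -0.93, -0.99 and -1.30 against 0.50, 0.11 and -0.34. The Fth1 ratios were -1.54, -1.61 and -1.91 in WT and -2.50, -2.42 and -2.65 in Rpl22+/-. None of these groups overlapped, as was true of 17.6% of all genes tested for efficiency, and without the block the 3 differences did not pass (adjusted p = 0.0898, 0.0898 and 0.0666). Csrnp1, by contrast, had an efficiency difference of 0.63 ± 0.24 (adjusted p = 0.381) and Fosl1 of 0.12 ± 0.35 (adjusted p = 0.964).

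The clones labelled Rpl22-/- were compared directly with Rpl22+/-. The difference in Rpl22 footprints did not pass over all clones (-1.07, adjusted p = 0.271) but was called lower without clone 30, whose footprints go against its label (-2.34, adjusted p = 3.9e-07), so each value below is also given without it. In RNA 1 of 12814 genes (0.0078%) was called between the 2 labels, and in footprints 1 of 16217 (0.00617%), or 1 and 2 genes without clone 30. At an unadjusted p under 0.05 there were 538 and 2336 genes, so that the number of calls says little about smaller differences. Fosl1 RNA averaged 17.4 CPM in the clones labelled Rpl22-/- and 18.5 in Rpl22+/- (-0.09, adjusted p = 1, and -0.13 without clone 30), and Srf RNA 111 in both (0.00, adjusted p = 1, and -0.05 without clone 30). Socs1 RNA averaged 10.1 CPM against 12.5 (-0.29, and -0.28 without clone 30) and Zfp322a RNA 16.2 against 15.1 (0.10, and 0.09 without it), neither called. For 3 other genes the clones labelled Rpl22-/- had means nearer to WT than to Rpl22+/-, though no difference between the mutants passed. Myct1 RNA averaged 25.4 CPM in WT and 3.45 in Rpl22+/-, and was at 32.2, 9.18 and 26.8 in clones 649, 30 and 776. The difference between the mutants was 2.73 (adjusted p = 0.415), or 3.11 without clone 30 (adjusted p = 0.27). Crybg1 RNA averaged 1.53, 6.85 and 1.96 CPM in WT, Rpl22+/- and the clones labelled Rpl22-/- (-1.76 between the mutants, and -1.86 without clone 30). Fth1 footprints averaged 442, 264 and 400 CPM in the same order (0.60, and 0.56 without clone 30).

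The comparison with Rpl5+/- and Rpl11+/-, which lose 1 copy of another large-subunit protein, called 654 RNA genes (5.1%) and 87 footprint genes (0.536%). Leaving out clone 60 gave 160 RNA calls, leaving out Rpl11+/- clone 414 gave 1082, and the footprint count ranged from 0 without clone 60 to 435 without clone 16. Zfp322a RNA was lower in Rpl22+/- than in the other heterozygotes by -0.63 (adjusted p = 7.27e-05), with means of 15.1 CPM in Rpl22+/-, 25.5 in Rpl5+/- and 21.3 in Rpl11+/-, and Zfp60, Zkscan8 and Zfp780b were lower by -0.63, -0.46 and -0.41 (adjusted p = 0.00526, 0.0135 and 0.0155). Fth1 footprints were lower by -0.95 (adjusted p = 0.00173), at 264 CPM against 483 and 536. Fosl1 RNA was higher by 0.72 (adjusted p = 0.0175), Csrnp1 footprints by 0.60 (adjusted p = 0.0434), Nfkbiz by 0.67 in RNA and 1.05 in footprints (adjusted p = 0.0213 and 0.0212), and Fam83d footprints by 1.16 (adjusted p = 0.00218). Against WT the differences were larger for Zfp322a, Zfp60, Zkscan8 and Zfp780b RNA (-1.06, -1.18, -1.03 and -0.71), Fosl1 RNA (1.54) and Csrnp1 footprints (1.52). For these, the other heterozygotes lay on average between Rpl22+/- and WT. Nfkbiz differed from WT by 1.08 at both levels, Fth1 footprints by -0.74 and Fam83d footprints by 1.03. Dusp2 footprints did not differ beyond the spread, at 20.2 CPM in Rpl22+/-, 14.8 in Rpl5+/- and 26.1 in Rpl11+/- (0.05, adjusted p = 0.939), nor did Ddit4 RNA (-0.16, adjusted p = 0.617).

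**Figure D5:**
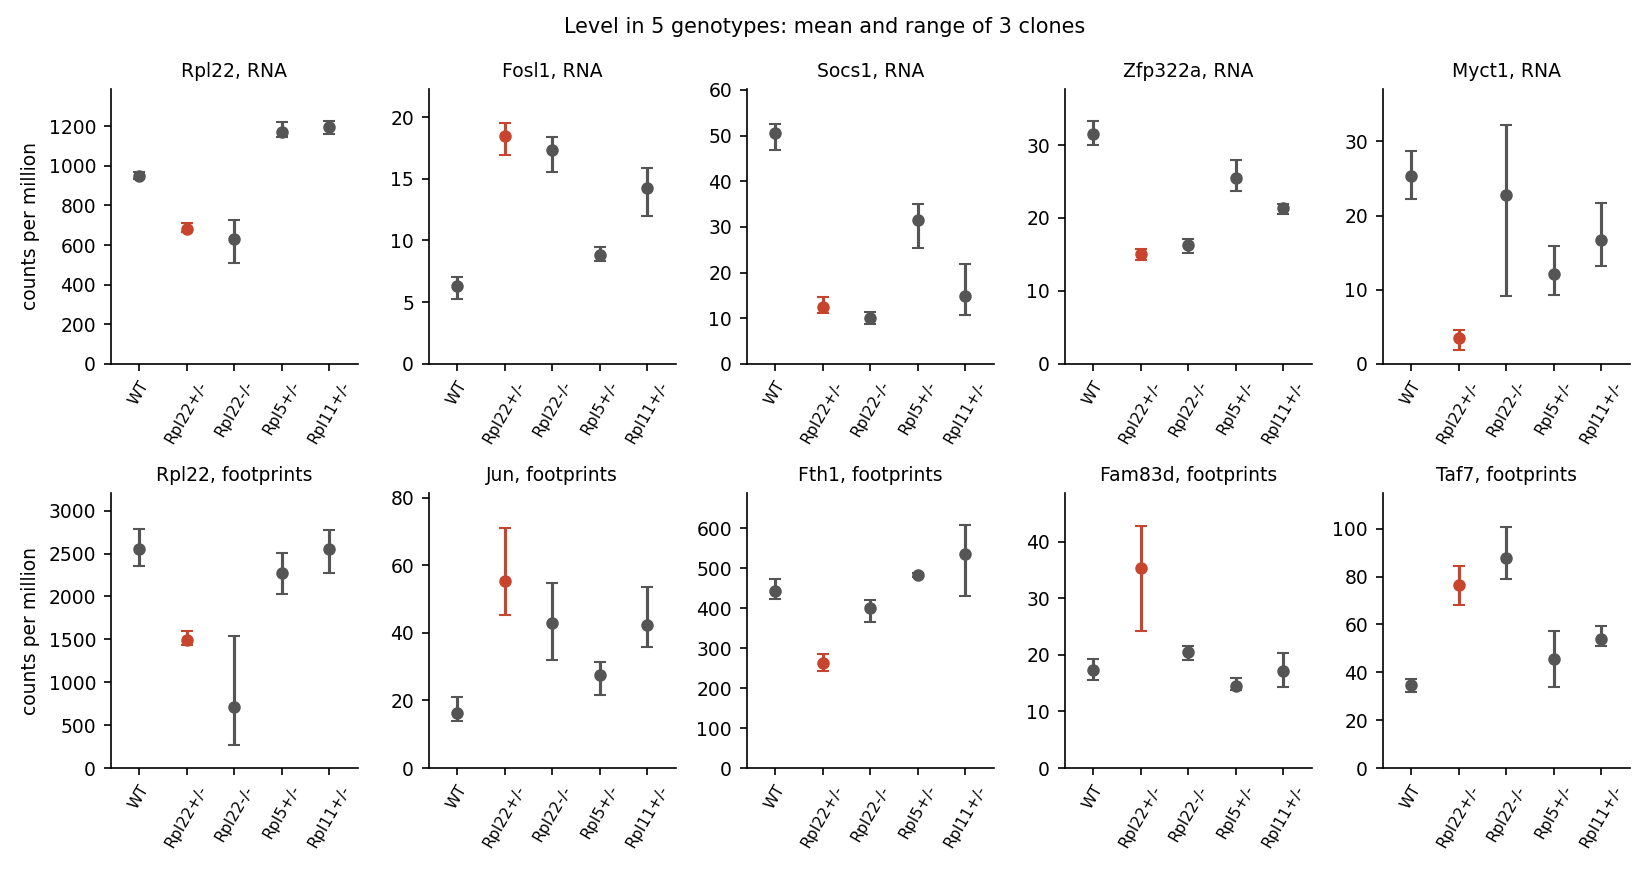
Mean CPM with the range of 3 clones in WT, Rpl22+/-, Rpl22-/-, Rpl5+/- and Rpl11+/- for RNA of Rpl22, Fosl1, Socs1, Zfp322a and Myct1 (top row) and footprints of Rpl22, Jun, Fth1, Fam83d and Taf7 (bottom row). Mean Fam83d and Fth1 footprints place Rpl22+/- apart from the other 4 genotypes, but neither difference from Rpl22-/- was called. Fosl1 and Zfp322a RNA place both Rpl22 genotypes beside each other. The upper end of the Rpl22-/- range of Rpl22 footprints is clone 30, at 1544 CPM.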

How the data were processed

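Poly(A) RNA and ribosome footprints were sequenced from 3 Ba/F3 clones of each of 8 genotypes. The deposited table holds estimated counts for 55487 genes in 48 libraries. The submitters' processing notes name STAR 2.6.1d, Salmon 1.4.0, DESeq2 1.30 and the build GRCm38 without saying which step used which, and how the authors treated reads shared by near-copies is not given in the sources used here. Counts were rounded to whole numbers. For each assay, genes were kept with edgeR's filterByExpr and scaled with the trimmed mean of M values. The filter asks for 15 counts in total and, in at least 3 libraries, the CPM that equals 10 counts at the median library size. A shallow library can therefore pass with fewer than 10 counts. Genes were tested with edgeR 4.0.16 (R 4.3.3), quasi-likelihood, over all 24 libraries with 1 mean per genotype, and an adjusted p under 0.05 was called. Exact permutation of 3 against 3 clones cannot go below p = 0.1. Depths stand with the results; counting error is small beside clone spread for all but low genes. CPM is not scaled by gene length, so levels of different genes were not compared. For translational efficiency, 1 model over the 48 libraries held genotype, assay and their interaction, for genes kept in both assays. Same-clone libraries share a lysate: their deviations correlated at 0.235 to 0.435 over 8441 genes, against -0.268 to -0.098 between different clones. Scripts were checked on simulated counts. The members, gene lists and tests were chosen with earlier results of these data known. Named in the text are Rpl22, Rpl22l1, up to 12 called genes of each direction and level by size (at least 5 CPM, groups not overlapping), 8 called at both levels, and up to 3 called members of each list, direction and level; other names were chosen after values were seen. Alternatives were DESeq2 1.42.0, limma 3.58.1 voom (also with sample quality weights), another size factor, no filter, protein-coding genes alone, only the compared genotypes, the clone as a block, and leaving out each clone. Other genotypes were not analysed here beyond their part in the spread and the comparisons given.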

Additional observations from a re-analysis of the deposited data

Results flagged for a closer look

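The test of Rpl22-/- against Rpl22+/- singled out 1 gene at each level. The RNA of 2610203C22Rik, a gene known by a clone name, was at 2.57, 3.70 and 3.24 CPM in WT clones 1, 2 and 3 and at 3.27, 3.38 and 3.67 in Rpl22+/- clones 13, 16 and 60, but at 0.224, 0.578 and 0 in the 3 clones labelled Rpl22-/-. Rpl22-/- minus Rpl22+/- was -3.48 (edgeR adjusted p = 0.00884), and WT and Rpl22+/- overlapped.

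In footprints, Rbm3-ps, a near-copy of the cold-shock gene Rbm3, was at 52.9, 37.8 and 112 CPM in WT, at 90.4, 81.0 and 204 in Rpl22+/- and at 6.35, 3.65 and 4.56 in the clones labelled Rpl22-/-. The difference between the mutants was -4.685 (edgeR adjusted p = 0.00282). How reads were split between the 2 copies is not given in the sources used here, so the value is uncertain.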

How the results depend on the processing

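Counts of calls moved with the model. Of 937 values of called named genes under the alternatives 0 changed sign, and of 1684 values of differences that were not called 58 did. With only the compared genotypes in the fit, RNA calls against WT were 1248, footprint calls 3, and calls against Rpl5+/- and Rpl11+/- footprints 1; between Rpl22-/- and Rpl22+/- RNA they were 2. DESeq2 gave 406 footprint calls against WT, 13 (RNA) and 317 (footprints) between Rpl22-/- and Rpl22+/-, 1042 and 536 against Rpl5+/- and Rpl11+/-, and 80 for efficiency. Limma voom gave 24, 0, 0 and 15 for the footprints against WT, the 2 contrasts with Rpl22-/- (RNA, footprints) and the footprints against Rpl5+/- and Rpl11+/-, and 8 for efficiency. With sample quality weights the 3 footprint counts were 66, 13 and 42. Without the filter they were 72, 35 and 194, and the RNA count against Rpl5+/- and Rpl11+/- was 413. With protein-coding genes alone they were 59 (26 higher, 33 lower), 7 and 140. The clone as a replicate block gave 14 efficiency calls, and 0 with only the 2 genotypes. Leaving clone 30, labelled Rpl22-/-, out of the fit, an alternative chosen after seeing the data, gave 430 RNA and 31 footprint calls and a called Rpl22 footprint difference (-0.77). Leaving out 1 clone, calls ranged from 211 to 336 (RNA against WT), 1 to 2 and 160 to 1082 (RNA, the other contrasts), 5 to 252, 0 to 178 and 0 to 435 (footprints) and 0 to 174 (efficiency), and the Rpl22 RNA difference from -0.505 to -0.453. Of the named genes' values, 1274 stayed on their side of the threshold, 65 lost and 40 gained a call under alternatives that keep every clone, against 1030, 200 and 12 without 1 clone. The 15598994 counts of clone 60 limit what footprints can show for low genes. The causes were not tested.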

Other observations

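Several footprint calls fall on near-copies or near-silent genes and carry little weight as levels. Pgk1-rs7, a near-copy of Pgk1, was at 2953, 2764 and 617 CPM of footprints in WT and at 1.74, 37.5 and 0 in Rpl22+/- clones 13, 16 and 60, so that the WT clones alone differ by several fold and the assignment of reads between the copies is uncertain. Ccn2, a matricellular growth factor gene, was at 0 in the 3 WT footprint libraries and at 0.282, 0.299 and 1.52 CPM in Rpl22+/-. Gm32857, called higher at both levels, was at 0.0343, 0.64 and 0.641 CPM of RNA in WT and at 9.62, 6.09 and 5.56 in Rpl22+/-. These names were chosen after their values were seen.

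Malat1, a nuclear non-coding RNA, was called higher in RNA, with means of 77.7 CPM in WT and 160 in Rpl22+/- (1.04, edgeR adjusted p = 0.0253), a call made in 1 of the 6 fits without 1 clone. Ddx6, a helicase of mRNA decay and repression, was called lower in RNA (-0.29 ± 0.06, adjusted p = 0.00502), with footprints higher in each Rpl22+/- clone without passing (0.29 ± 0.11, adjusted p = 0.248). Larp1, which binds mRNAs of the translation machinery, was called lower in footprints, at 119, 131.2 and 122 CPM against 76.4, 96.0 and 85.0 (-0.53 ± 0.10, adjusted p = 0.0204), with level RNA (-0.05 ± 0.09, adjusted p = 0.872).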
